A study of Saccharomyces cerevisiae with 24 samples.

Results

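The response of budding yeast to 6 h without oxygen was measured in cells that lack the heme activator Hap1 (Δ*hap1* cells). The members are all S. cerevisiae genes measured on the arrays of strain L51, 5449 genes in all, and the comparison sets 3 arrays of Δ*hap1* cells kept without oxygen for 6 h against 3 arrays of aerobic Δ*hap1* cells, paired by the replicate number in their titles (6 of the 24 arrays of the series). Both groups share the L51 background of mating type MATa, in which *LEU2* disrupts the chromosomal *HAP1* gene (hap1::LEU2) and which also carries the trp1::HisG disruption and ura3, leu2, his4 and ade1 marker alleles, and both carried an empty plasmid in place of the *HAP1* plasmid. Cells grew in synthetic complete medium, and oxygen was removed in a chamber filled with hydrogen and nitrogen over a palladium catalyst. The other L51 arrays hold cells with the *HAP1* plasmid (*HAP1* cells) at 6 h and at 1.5 h without oxygen, with cobalt chloride, and in air, 3 arrays each. According to the methods the replicates are RNA from separately grown batches of cells. Δ*hap1* here is a single disrupted strain, and the *HAP1* cells with which it is compared below carry *HAP1* on a plasmid and not at its own locus.

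Yeast needs molecular oxygen to make heme, sterols and unsaturated fatty acids, and it takes up sterols only when oxygen is absent. In air, heme turns Hap1 into an activator of respiratory genes and of *ROX1*, whose product represses hypoxic genes. When oxygen falls, low sterol activates Upc2, which turns on sterol synthesis and the DAN, TIR and PAU genes of the anaerobic cell wall, while Mga2 acts on the fatty acid desaturase gene *OLE1*. Several proteins exist as an aerobic and a hypoxic isoform encoded by a pair of genes, and these pairs are the classical readout of Hap1 and Rox1.

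*HAP1* itself read 5.76, 6.03 and 6.57 (log2 intensity) on the 3 anaerobic arrays and 5.80, 6.11 and 6.13 on the 3 aerobic arrays, under the background on all 6, against 9.77 to 12.1 on the arrays of *HAP1* cells. Background is taken as the level that 95% of the S. pombe probe sets of the same array stay under. The anaerobic arrays were the dimmer ones within each pair: 92.0%, 73.1% and 66.2% of the S. cerevisiae probe sets lay above background after 6 h, against 93.9%, 83.9% and 89.1% in air, and the median gene had a log2 change of -0.08, -0.22 and -0.57 in pairs 1, 2 and 3. Arrays of 1 replicate number shared a hybridization day and fell into 2 rounds, with every 6 h array in the second and every aerobic array in the first, so that round and oxygen cannot be told apart within these 6 arrays. The part of dimness and round in the falls described below was not tested, other than by the alternatives named beside them. Replicate 3 of *HAP1* cells at 6 h stood apart from its group: *PAU2*, a gene of anaerobic growth, read 14.67, 14.52 and 10.06 on the 3 arrays. This array also enters directly the 6 h values of *HAP1* cells and the differences between genotypes given below. Into the change in Δ*hap1* cells it and the replicate 3 arrays at 1.5 h and with cobalt enter only through the shared spread and block. Without these 3 arrays 206 genes were higher (3.78%) and 564 lower (10.4%), and the difference between genotypes for *PAU5* was -0.01, against 1.17 with them. The SE of the change of *PAU2* was then 0.26, against 0.76 with them. As the 6 h array was singled out by such a gene, calls of anaerobic genes in this fit are no independent support. No value is given here for the choice of the 1.5 h and cobalt arrays. A paired fit of the 6 Δ*hap1* arrays alone gave 198 higher (3.63%) and 832 lower (15.3%). Of the 179 genes named by rule that did not pass with all 18 arrays, 43 passed without these 3 arrays and 72 in the fit of 6, and such cases are given beside the genes concerned where a statement turns on them. The number of arrays limits the precision of every value.

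After 6 h, 122 genes were higher (2.24% of the 5449 tested) and 471 were lower (8.64%) at an adjusted p under 0.05 (limma with the replicate number as a block, all 18 L51 arrays in the fit). All 122 and all 471 moved the same way in each of the 3 pairs. The median gene stood at -0.30, and changes are best read against it. When the arrays were scaled by quantiles over S. cerevisiae probe sets alone, which brings the median gene to -0.03, 255 genes were higher (4.68%) and 175 lower (3.21%), so that rises made up 59.3% of the calls, against 20.6% without that scaling. Of the 122 rises 117 passed under both scalings, of the 471 falls 175 did, and no gene passed in opposite directions. Counted without a test, the 3 anaerobic arrays lay wholly above the 3 aerobic arrays for 377 genes (6.92%) and wholly below them for 755 (13.9%). The difference was at least 2-fold, a log2 change of 1, in the same direction in each pair for 79 genes upward (1.45%) and 212 downward (3.89%). Among genes past the threshold the estimated change was at least 8-fold for 11 that rose and 3 that fell. Of these, *SET4* and *OSW2* lay under the background on all 3 aerobic arrays, and *CIN8* and *CUR1* on all 3 anaerobic arrays. For these genes only the smaller bounds given below hold.

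The calls depended on single arrays and on whole replicate numbers. Without all arrays of replicate 1 no gene passed, with 923 genes at an unadjusted p under 0.05, against 1670 with all arrays. Without replicates 2 and 3 in turn 76 genes were higher each time and 670 and 43 lower. Without the 6 h array of replicate 3, 5 genes were higher and 6 lower, and without the 6 h arrays of replicates 1 and 2 in turn the counts were 45 and 343, and 37 and 137. Without the aerobic arrays of replicates 1, 2 and 3 in turn they were 11 and 32, 35 and 136, and 38 and 50. With the hybridization round as the block, a fit that can tie 6 h to air through no arrays but those of *HAP1* cells at 1.5 h and with cobalt, 10 genes were higher and 26 lower. Of the 125 genes past the threshold that the rule for named genes chose, 16 passed there too: *SRL3*, *TSA2*, *PIR3* and *SCM4* rose, and *YGR035C*, *RTT107*, *RRP14*, *NOP16*, *NOP53*, *UTP14*, *ENP2*, *NOP7*, *RPA34*, *APJ1*, *AGA2* and *MFA1* fell. None of the 125 turned direction under any alternative. Since their 3 pairs moved the same way, dropping the block, arrays of *HAP1* cells or a whole replicate number could not turn them, nor could another variance model.

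**Figure D1:**
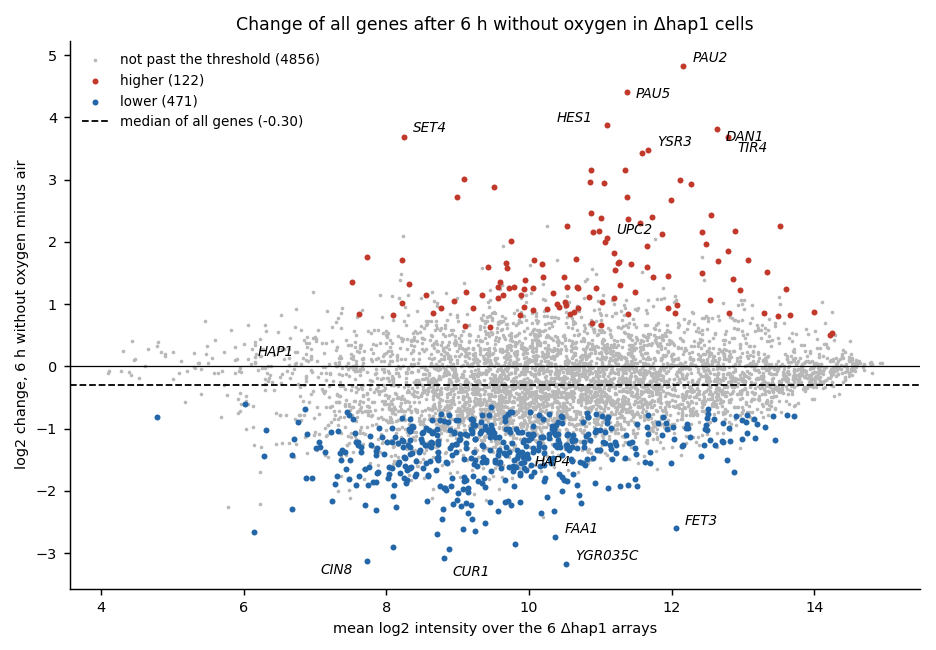
Log2 change after 6 h without oxygen in Δ*hap1* cells (y axis) against the mean log2 intensity over the 6 Δ*hap1* arrays (x axis), 1 point a gene, with 122 genes higher (red), 471 lower (blue) and the median of all genes at -0.30 (dashed). The rises reach 4.83 (*PAU2*), and the falls form a broad band that ends at -3.17 (*YGR035C*).

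The largest rises were in genes of the cell wall that is built without oxygen. Of the 13 seripauperin (PAU) genes measured, which encode small cell wall proteins typical of anaerobic growth, 11 were higher (84.6%, against 2.24% of all genes). The median log2 change over the 13 was 2.26, against -0.30 over all genes. *PAU2* read 14.54, 14.59 and 14.60 on the anaerobic arrays and 9.70, 9.97 and 9.58 on the aerobic arrays, a change of 4.83 (SE 0.76, adjusted p = 0.0068). *PAU5* read 13.60, 13.76 and 13.35 without oxygen, against 8.81, 9.55 and 9.15 in air (4.40, SE 0.73, adjusted p = 0.0070). For both genes every anaerobic array lay above every aerobic one by several log2 units. *PAU24* (3.42), *PAU7* (2.96), *PAU8* (2.47) and *PAU18* (2.36) also rose, *PAU23* was bright in both groups (14.40, 14.79 and 14.67 against 14.23, 14.54 and 14.49), and *PAU3*, under the background on all 3 aerobic arrays, did not pass (adjusted p = 0.17). Without the 3 replicate 3 arrays of *HAP1* cells *PAU3* passed (adjusted p = 0.0034), as it did in the fit of the 6 Δ*hap1* arrays (0.024). PAU genes are near-identical copies that share probe signal, so that each is uncertain as a single gene.

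The DAN and TIR mannoproteins, the other cell wall proteins of anaerobic growth, rose in 4 of 6 cases (66.7%, against 2.24% of all genes), with a median of 2.12. All 6 had their anaerobic arrays wholly above the aerobic ones, as 6.92% of all genes did. *DAN1* read 14.56, 14.56 and 14.50 after 6 h, against 10.21, 11.74 and 10.21 in air, a change of 3.82 (SE 1.00, adjusted p = 0.033). *TIR4* read 14.58, 14.74 and 14.56 after 6 h, against 10.27, 11.60 and 10.96 in air (3.68, SE 0.81, adjusted p = 0.020). *TIR2* (2.25) and *DAN4* (2.00) rose as well. *TIR1* and *TIR3* did not pass (1.04 and 0.88, adjusted p = 0.33 and 0.18): their aerobic arrays already read 13.48, 14.11 and 13.18 for *TIR1* and 13.60, 14.20 and 13.64 for *TIR3*. Both passed in the fit of the 6 Δ*hap1* arrays (adjusted p = 0.036 and 0.041), where all 6 of the list were higher, against 3.63% of all genes. Without the 3 replicate 3 arrays of *HAP1* cells neither passed (0.12 and 0.11). The brightest value in the whole table was 15.06, and the anaerobic readings of *DAN1*, *TIR1*, *TIR3* and *TIR4* lay between 14.50 and 14.77. *TIR2* lost its call after quantile scaling (adjusted p = 0.051).

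Of 13 other cell wall mannoproteins 3 were higher (23.1%, against 2.24% of all genes). *PIR3*, an O-glycosylated wall protein, read 13.68, 13.80 and 13.70 after 6 h, against 10.58, 11.64 and 10.17 in air (2.93, SE 0.53, adjusted p = 0.010). *PST1*, which is secreted to the wall, rose by 2.43 (adjusted p = 0.010) and *SPI1* by 1.59 (0.034). *HSP150* and *CWP1* had 0.36 and -0.44 (adjusted p = 0.17 and 0.49). *OSW2*, a gene of spore wall assembly, was also among the 15 largest rises, at 11.15, 10.31 and 10.32 after 6 h and under the background on all 3 aerobic arrays, which makes it at least 5.18-fold higher (adjusted p = 0.026). That bound, like those below, sets the mean of the brighter group against the background of the other group's arrays.

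The other large rises came from several roles. *SET4*, a SET-domain protein, read 10.99, 10.24 and 9.03 after 6 h, above the background on 2 of these arrays, and lay under it on all 3 aerobic arrays, which makes it at least 3.64-fold higher (adjusted p = 0.014). *SRL3* read 12.87, 12.82 and 11.65, against 9.28, 9.58 and 9.02 in air (3.16, SE 0.51, adjusted p = 0.0068), and *FHN1*, a protein of plasma membrane domains, read 13.95, 13.49 and 13.41, against 10.97, 10.51 and 10.39 in air (2.99, SE 0.55, adjusted p = 0.011). *PBI1* rose by 3.16 (0.011). All 4 had anaerobic arrays wholly above the aerobic ones. The largest fall was that of *YGR035C*, a gene of unknown function, which read 8.53, 8.93 and 9.31 after 6 h, against 12.78, 10.89 and 12.62 in air (-3.17, SE 0.37, adjusted p = 0.0017). *PDR16*, a phosphatidylinositol transfer protein, read 9.01, 7.87 and 8.24, against 12.04, 10.27 and 11.39 in air (-2.86, SE 0.47, adjusted p = 0.0070), and *CUR1*, which sorts misfolded proteins, was at least 3.32-fold lower (0.0077). *YBL028C* fell by 2.62 (0.027). For it and *PDR16* anaerobic arrays 2 and 3 lay under the background. *SLK19*, of the kinetochore, lay under the background on every anaerobic array and on 2 aerobic ones, so that its fall has no stated fold.

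**Figure D2:**
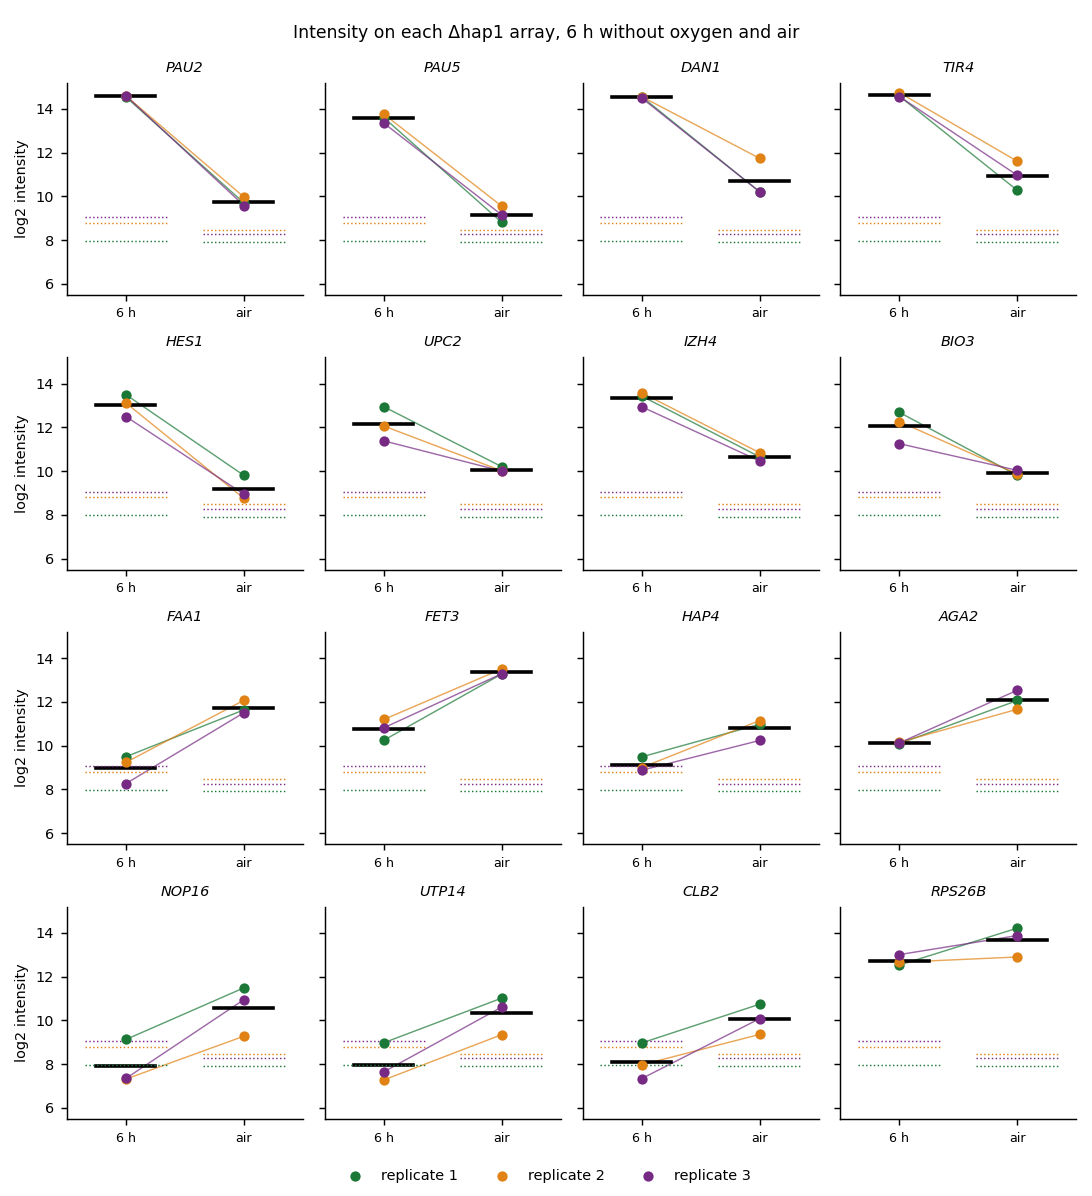
Log2 intensity of 16 genes on each Δ*hap1* array, 6 h without oxygen at left and air at right in each panel, with lines joining arrays of 1 replicate number, black bars for group means and dotted lines for each array's background. *PAU2*, *PAU5*, *DAN1* and *TIR4* lie above 13 on every anaerobic array and below 12 on every aerobic one, while *NOP16*, *UTP14* and *CLB2* lie under the background on anaerobic arrays 2 and 3.

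*UPC2* and 2 genes of sterol import and esterification rose. *UPC2*, the activator that senses sterol, read 12.94, 12.06 and 11.38 after 6 h, against 10.20, 10.01 and 10.00 in air (2.06, SE 0.50, adjusted p = 0.027), so that all 3 anaerobic arrays lay above the aerobic ones but spread over more than 1 log2 unit. *HES1*, of the oxysterol-binding protein family, read 13.49, 13.11 and 12.49, against 9.80, 8.75 and 8.94 in air (3.87, SE 0.67, adjusted p = 0.0089), and *PDR11*, an ABC transporter of sterol uptake, read 12.20, 12.45 and 11.64, against 9.98, 10.65 and 10.20 in air (1.82, SE 0.34, adjusted p = 0.011). They were 2 of 17 genes of that list (11.8%, against 2.24% of all genes), whose median was 0.36 and of which 6 had values below 0. *ARE2*, a sterol acyltransferase that works in air, had 1.24 (adjusted p = 0.073; 0.038 after quantile scaling), and *OSH6* and *PRY1* had 1.13 and 1.07 (0.16 and 0.075). *ARE2*, *OSH6* and *PRY1* passed in the fit of the 6 Δ*hap1* arrays (adjusted p = 0.034, 0.027 and 0.036).

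Among the enzymes of ergosterol synthesis the values were small and nearly all positive. *ERG28*, a scaffold of the demethylation enzymes, rose by 1.22 (13.69, 13.42 and 13.60 after 6 h, against 12.59, 12.25 and 12.21 in air; SE 0.23, adjusted p = 0.011). *ERG13* and *HMG2*, HMG-CoA synthase and the hypoxic HMG-CoA reductase, each rose by 0.86 (adjusted p = 0.028 and 0.023), *MVD1* by 0.81 (0.047) and *ERG6*, the sterol methyltransferase, by 0.82 (0.026). In all, 3 of 10 mevalonate and squalene enzymes, 2 of 9 other sterol enzymes and 1 of 7 enzymes that use oxygen or heme were higher and none was lower. The enzymes that need oxygen or heme had a median of 0.50, and all 7 had positive values in every pair. Among them were *ERG11*, the lanosterol demethylase (14.50, 14.43 and 14.53 after 6 h, against 14.04, 14.08 and 14.04 in air), with 0.43 (adjusted p = 0.10), *ERG1*, squalene epoxidase, with 0.36 (0.19), *ERG3* with 0.60 (0.14), *ERG5* with 0.48 (0.26), *NCP1* with 0.52 (0.12) and *CYB5* with 1.06 (0.21). *ERG25*, the methyl sterol oxidase, rose by 0.50 with an adjusted p just under the threshold and lost its call after quantile scaling (0.058), while the counts of the mevalonate and the other sterol enzymes were then 5 and 4. Under that scaling 4.68% of all genes were higher.

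The regulators of the oxygen response other than *UPC2* moved less. *ROX1*, the hypoxic repressor, read 9.31, 9.26 and 9.61 after 6 h, against 9.81, 10.79 and 10.54 in air (-0.98, SE 0.78, adjusted p = 0.40). Its anaerobic arrays lay wholly below the aerobic ones. *ROX1* passed in the fit of the 6 Δ*hap1* arrays (adjusted p = 0.048) but not without the 3 replicate 3 arrays of *HAP1* cells (0.11). *HAP4*, the regulated subunit of the Hap2/3/4/5 activator of respiration, read 9.49, 9.00 and 8.88 after 6 h, against 10.98, 11.15 and 10.24 in air, and fell by 1.66 log2 units (SE 0.44, adjusted p = 0.034). *ECM22*, the paralog of *UPC2*, read 10.46, 9.86 and 8.87, against 10.81, 10.92 and 10.74 in air, and fell by 1.09 (SE 0.27, adjusted p = 0.028). Both falls were no longer past the threshold after quantile scaling (adjusted p = 0.090 and 0.087, with -1.27 and -0.74). *MGA2*, which activates *OLE1*, had 0.71 (adjusted p = 0.21; 0.035 after quantile scaling). *HAP2*, *HAP3* and *HAP5* had -0.75, -0.64 and -0.06, *MOT3* and *IXR1* -0.23 and -0.22, *SUT1* and *SUT2* 0.30 and -0.32, *SPT23* -0.19, and the corepressor genes *TUP1* and *CYC8* -0.38 and -0.12, none past the threshold. *HAP2* passed without the 3 replicate 3 arrays of *HAP1* cells (adjusted p = 0.042) but not in the fit of the 6 Δ*hap1* arrays (0.06).

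Of the 5 hypoxic isoforms 2 rose (40.0%, against 2.24% of all genes), with a list median of 0.86. Of their 5 aerobic partners none passed, with a median of -0.31. *COX5B*, the hypoxic subunit Vb of cytochrome c oxidase, read 11.54, 11.31 and 10.75 after 6 h, against 9.95, 9.76 and 9.60 in air (1.43, SE 0.43, adjusted p = 0.049), and *HMG2*, described above, was the other isoform that rose. *ANB1*, the hypoxic form of translation factor eIF5A, read 14.16, 14.15 and 13.77 after 6 h, against 13.45, 12.58 and 13.04 in air (1.00, SE 1.01, adjusted p = 0.51). Its anaerobic arrays lay above the aerobic ones, by 0.71, 1.57 and 0.73 within pairs, and the SE over all 18 arrays was as large as the change. Without the 3 replicate 3 arrays of *HAP1* cells the SE was 0.29 and *ANB1* passed (adjusted p = 0.046), as it did in the fit of the 6 Δ*hap1* arrays (0.044). *AAC3*, an ADP/ATP carrier, read 11.92, 11.14 and 10.90, against 12.18, 11.02 and 11.74 in air (-0.33, adjusted p = 0.71), and *CYC7*, the hypoxic cytochrome c, was above background on 1 anaerobic and 2 aerobic arrays (-1.99, SE 0.98, adjusted p = 0.18; 0.030 in the fit of 6).

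Of the 5 aerobic isoforms none passed in limma under this scaling, after quantile scaling or after cyclic loess (0 at an unadjusted p under 0.05). *CYC1*, the main cytochrome c and a classical target of Hap1, read 9.59, 10.01 and 8.77 after 6 h, against 9.86, 10.06 and 9.68 in air (-0.41, SE 0.79, adjusted p = 0.75). *COX5A*, the aerobic partner of *COX5B*, read 13.57, 13.62 and 12.66 after 6 h, against 13.53, 13.98 and 13.50 in air (-0.38, adjusted p = 0.49). The 2 groups overlapped for both genes. *PET9*, the main ADP/ATP carrier, had -0.31 (adjusted p = 0.37), *HYP2*, the aerobic eIF5A, 0.14 (0.57) and *HMG1* 0.12 (0.85).

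**Figure D3:**
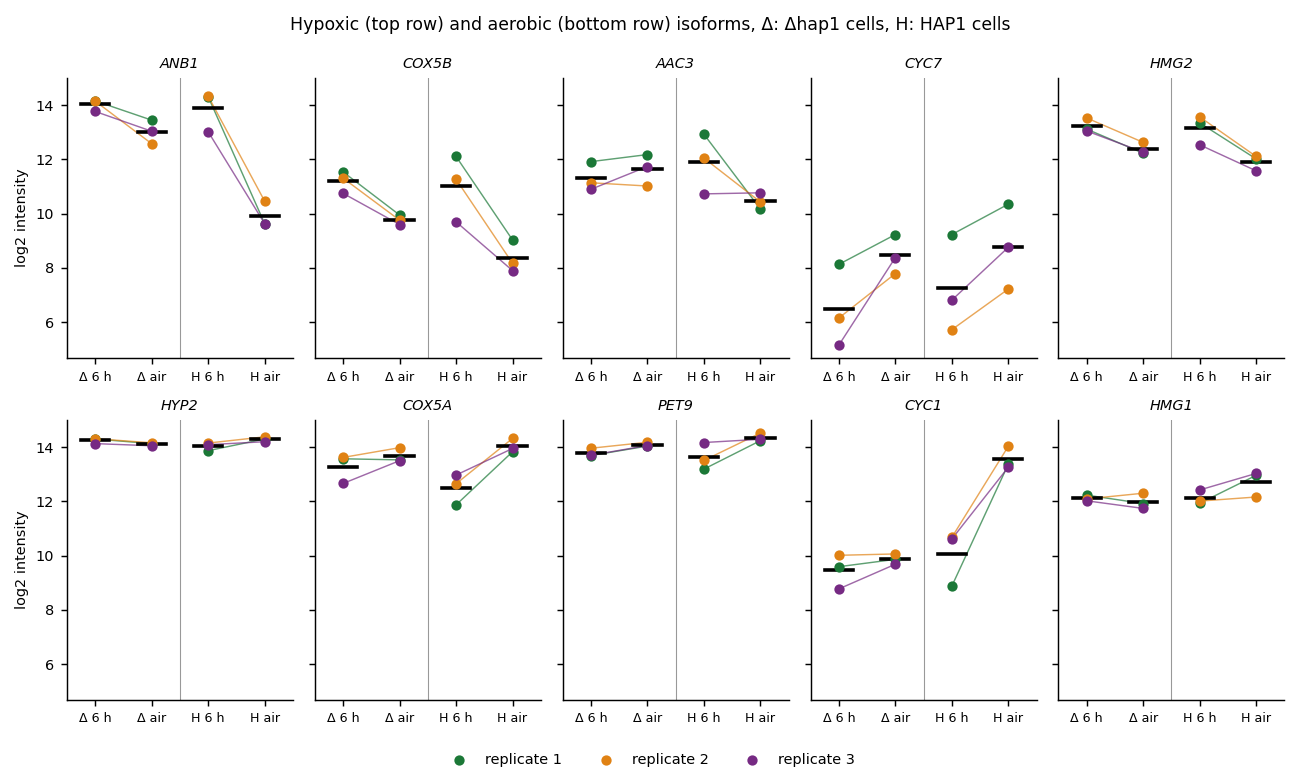
Log2 intensity on each array of 5 hypoxic isoforms (top row) and, below each, its aerobic partner (bottom row), in Δ*hap1* cells (Δ) and *HAP1* cells (H), 6 h without oxygen to the left of air in each genotype; lines join arrays of 1 replicate number and bars are means. In Δ*hap1* cells *ANB1* averages 14.03 after 6 h and 13.02 in air and *CYC1* 9.45 and 9.87, while in *HAP1* cells *ANB1* averages 13.89 and 9.91 and *CYC1* 10.05 and 13.55.

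The core complexes of respiration had no call with all 18 arrays. Of 9 measured subunits of the cytochrome bc1 complex, 7 of cytochrome c oxidase (*COX5A* and *COX5B* are counted as isoforms above), 17 of the ATP synthase and 13 enzymes of the tricarboxylic acid cycle, 0 were called in limma under this scaling, after quantile scaling or after cyclic loess, with 1, 0, 1 and 0 members at an unadjusted p under 0.05. Their median changes were -0.57, -1.12, -0.79 and -0.05. Of the bc1, oxidase and ATP synthase members 8 of 9, 6 of 7 and 13 of 17 were lower in all 3 pairs, as 43.3% of all genes were. *QCR6* had -1.16 (SE 0.47, adjusted p = 0.12), *COX8* -1.32 (SE 0.69, adjusted p = 0.21) and *INH1*, the inhibitor of the ATP synthase, -1.80 (SE 1.13, adjusted p = 0.29). The arrays in the fit changed this count: with the 6 Δ*hap1* arrays alone 1 bc1, 5 oxidase and 5 ATP synthase members were lower, against 15.3% of all genes, among them *QCR6* (adjusted p = 0.025), *COX8* (0.027), *COX12* (0.025), *COX7* (0.027), *INH1* (0.017), *ATP20* (0.027) and *ATP4* (0.035). Without the 3 replicate 3 arrays of *HAP1* cells 1 bc1 and 4 ATP synthase members were lower, *QCR6* (0.011) and *INH1* (0.023) among them, and no member of the oxidase list. *COX7* read 11.48, 9.12 and 10.11 after 6 h, against 12.53, 10.00 and 11.57 in air, so that the groups overlapped while each pair had the lower value after 6 h.

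Of 24 oxidase assembly factors 3 fell (12.5%, against 8.64% of all genes): *PET54* (-1.64), *PET309* (-1.31) and *PET111* (-1.08), each above background on 1 of 3 anaerobic arrays and none past the threshold after quantile scaling. *NDE2*, the minor external NADH dehydrogenase, rose by 1.01 (adjusted p = 0.026), 1 of 12 respiratory dehydrogenase genes. It lay under the background on all 3 aerobic arrays and above it on 1 of 3 anaerobic arrays, so that no fold is stated.

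Heme synthesis and breakdown had no call among 9 genes in limma under the 3 scalings (3 at an unadjusted p under 0.05), with a median of 0.02. *HEM13*, coproporphyrinogen oxidase, whose reaction uses oxygen, read 14.20, 14.15 and 13.80 after 6 h, against 12.97, 12.95 and 12.92 in air. Its anaerobic arrays lay wholly above the aerobic ones, yet the change of 1.11 did not pass with all 18 arrays (SE 0.54, adjusted p = 0.18). It passed without the 3 replicate 3 arrays of *HAP1* cells (SE 0.26, adjusted p = 0.023) and in the fit of the 6 Δ*hap1* arrays (0.026). *HEM12* had -0.64 (adjusted p = 0.092), and *HEM3* was under the background in both groups.

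Of 6 genes of biotin synthesis and uptake 2 rose (33.3%, against 2.24% of all genes). *BIO3* and *BIO2*, enzymes of the last steps of biotin synthesis, read 12.68, 12.26 and 11.25 and 13.19, 12.73 and 11.95 after 6 h, against 9.80, 9.86 and 10.03 and 10.43, 10.61 and 11.02 in air. Their changes were 2.17 (SE 0.53, adjusted p = 0.027) and 1.93 (SE 0.45, adjusted p = 0.021), and the rise was smallest in pair 3. *BIO4* (1.71) and the transporter gene *BIO5* (1.62) did not pass (0.071 and 0.062) but did after quantile scaling (0.040 and 0.043), which makes 4 of 6 genes of the list, with a median of 1.66 before and 1.99 after. Under that scaling 4.68% of all genes were higher. *BNA2*, which opens the synthesis of NAD from tryptophan with an oxygen-using step, rose by 1.66 (12.08, 12.44 and 11.73 against 10.01, 11.09 and 10.17; SE 0.39, adjusted p = 0.022), the only one of 13 genes of that pathway to pass.

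In fatty acid metabolism *OLE1*, the desaturase that needs oxygen, read 14.45, 14.43 and 14.44 after 6 h, against 13.67, 13.40 and 13.62 in air (0.88, SE 0.25, adjusted p = 0.040), and *FAS2*, a fatty acid synthase subunit, rose by 0.54 (0.046). *FAA1*, the main long-chain acyl-CoA synthetase, read 9.50, 9.24 and 8.27, against 11.64, 12.08 and 11.51 in air, and fell by 2.74 log2 units (SE 0.65, adjusted p = 0.023). *FAA3* fell by 1.01 (0.035) and *FAA4*, its relative, had 0.58 (0.19). *FAS2* and *FAA3* lost their calls after quantile scaling (adjusted p = 0.050 and 0.057). *YSR3*, a phosphatase of sphingoid base phosphates, read 13.54, 13.69 and 12.99 after 6 h, against 10.07, 10.26 and 9.45 in air and was among the 7 largest rises (3.48, SE 0.54, adjusted p = 0.0068), while *LCB4*, a kinase of the same lipids, fell by 0.96 (0.020). Of the 18 sphingolipid genes these 2 passed.

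Of the 4 IZH genes 2 rose, 3 had anaerobic arrays wholly above the aerobic ones and the median was 1.05. *IZH4* and *IZH2*, membrane proteins linked to zinc and to sterols, rose by 2.67 (13.43, 13.58 and 12.94 after 6 h, against 10.65, 10.84 and 10.46 in air; SE 0.37, adjusted p = 0.0044) and 1.40 (0.038), and *IZH1* and *IZH3* had 0.70 and -0.55. *FET3*, the multicopper ferroxidase of iron uptake, whose reaction consumes oxygen, read 10.25, 11.20 and 10.82 after 6 h, against 13.28, 13.51 and 13.29 in air, and fell by 2.60 log2 units (SE 0.65, adjusted p = 0.027). Of 29 genes of the iron regulon it was the 1 past the threshold downward and *BNA2*, described above, the 1 upward. The anaerobic arrays lay wholly below the aerobic ones for 10 of the 29 (34.5%, against 13.9% of all genes), and 12 were lower in all 3 pairs (43.3% of all genes were). *FRE1*, a ferric reductase, had -1.20 (adjusted p = 0.097) and *CCC2*, the copper transporter that supplies Fet3, -1.14 (0.21), and without the 3 replicate 3 arrays of *HAP1* cells both passed (0.027 and 0.031), among 5 of the list that were then lower. *CUP1-1*, the copper metallothionein, fell by 1.17 (0.017). *TSA2*, a peroxiredoxin, rose by 2.94 (12.50, 12.62 and 12.42 against 9.74, 9.63 and 9.36; SE 0.52, adjusted p = 0.010), alone among 25 oxidant defense genes. *GPX2*, a glutathione peroxidase, had -2.42 (SE 0.83, adjusted p = 0.074; 0.0066 without those 3 arrays). *GPP2*, a glycerol phosphatase, rose by 1.86 (0.033), whereas *GPD1* and *GPD2* of the step before had 0.76 and -0.84 (0.16 and 0.35).

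Of 25 measured genes of glycolysis and fermentation 1 rose (*PDC6*, 0.88) and 1 fell (*PFK27*, -0.69), 4.00% each, against 2.24% and 8.64% of all genes, with a median of 0.06. Both were lost after quantile scaling (0.053 and 0.086). The anaerobic arrays lay wholly above the aerobic ones for 7 of the 25 (28.0%, against 6.92% of all genes), and 14 were higher in all 3 pairs (15.3% of all genes were). *HXK1*, a hexokinase, had the highest value of the list, at 13.53, 13.07 and 13.29 after 6 h, against 11.57, 12.36 and 10.68 in air (1.76, SE 0.56, adjusted p = 0.061; 0.039 after cyclic loess and 0.015 without the 3 replicate 3 arrays of *HAP1* cells). The high and intermediate affinity hexose transporters *HXT7* and *HXT4* fell by 1.28 and 1.53 (adjusted p = 0.017 and 0.047) and the glucose sensor *RGT2* rose by 0.96 (0.025), and *HXT4* lost its call after quantile scaling (0.10). *ATF1*, an alcohol acetyltransferase, read 12.23, 11.01 and 11.29 after 6 h, against 9.93, 9.60 and 9.86 in air (1.72, SE 0.40, adjusted p = 0.023). Of 23 general stress genes *TFS1* rose by 1.96 (0.027) and *TKL2* was at least 1.70-fold higher (0.029), from aerobic values under the background and with 2 of 3 anaerobic arrays above it. The list had a median of 0.59, and 14 of its members had positive values in each pair, as 15.3% of all genes did. At the threshold 8.7% of the list were higher, against 2.24% of all genes. After quantile scaling 5 were higher, where 4.68% of all genes were. Of 24 heat shock and chaperone genes 3 were lower (12.5%, against 8.64% of all genes) and none higher. *APJ1* (-1.88), *HSP30* (-1.23) and *MDJ1* (-1.09) fell, *HSP26* and *SSA1* had 1.94 and 0.88 (both adjusted p = 0.079), and after quantile scaling *HSP26* and *SSA1* were higher (0.035 and 0.034) and *APJ1* alone remained lower (0.035).

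The broadest fall was in the making of ribosomes. Of 98 measured ribosome biogenesis genes, which process and assemble ribosomal RNA in the nucleolus, 39 were lower (39.8%, against 8.64% of all genes), none was higher, and all 98 had values below the median gene (list median -1.20). *NOP16*, a factor of the large subunit, read 9.13, 7.32 and 7.35 after 6 h, against 11.49, 9.28 and 10.95 in air (-2.65, SE 0.44, adjusted p = 0.0070). *UTP14*, of the small-subunit processome, read 8.98, 7.28 and 7.65, against 11.02, 9.35 and 10.61 in air (-2.36, SE 0.39, adjusted p = 0.0074), and *RRP14* (-2.94), *NOP53* (-2.45), *ENP2* (-2.35) and *NOP7* (-2.20) fell similarly. The arrays of replicate 2 were low for these genes in air too, so that the groups are separated within pairs more than between groups: 42 of the 98 had anaerobic arrays wholly below the aerobic ones (42.9%, against 13.9% of all genes). The list's median was -0.83, -0.92 and -1.76 in pairs 1, 2 and 3.

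The size of this fall varied with scaling and its direction did not. After quantile scaling 12 of the 98 were lower (12.2%, against 3.21% of all genes), with a median of -0.94, after cyclic loess 13, and with the hybridization round as the block 9. Among the 73 members above background on all 6 arrays 27 were lower, with a median of -1.10, against 153 of all 3439 such genes (4.45%; median -0.18). RNA polymerase I, which transcribes the ribosomal RNA, had 5 of 15 genes lower (33.3%, against 8.64% of all genes), with a median of -1.03. Among them were *RRN11* (-1.75), *RPA34* (-1.39, with 11.19, 9.92 and 10.46 against 12.51, 10.61 and 12.63) and the initiation factor gene *RRN3* (-1.03). After quantile scaling 2 of the 15 were lower (13.3%, against 3.21% of all genes). Among the 15 largest falls were also *EFG1*, a factor of the small subunit, at least 1.90-fold lower (above background on 2 of 3 aerobic arrays; adjusted p = 0.045, and 0.054 after quantile scaling), and *ECM1*, a factor of large subunit export, which fell by 2.52 (0.026). For *ECM1* anaerobic arrays 2 and 3 lay under the background.

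The structural proteins of the cytosolic ribosome did not show a fall of that size. Of 128 measured genes only *RPS26B* passed (-0.93, SE 0.27, adjusted p = 0.046), 0.781% of the list. Their median was -0.20, against -0.30 over all genes, and after quantile scaling -0.16, against -0.03. In all 3 pairs 75 of the 128 were lower and 1 was higher, where 43.3% of all genes were lower and 15.3% higher. The anaerobic arrays lay wholly below the aerobic ones for 7.03% of the list, against 13.9% of all genes. *RPS26B* read 12.53, 12.66 and 13.01 after 6 h, against 14.22, 12.90 and 13.88 in air, and lost its call after quantile scaling (0.085). Mitochondrial ribosomal proteins lay between: 6 of 73 were lower (8.22%, close to the 8.64% of all genes) with a median of -0.63, among them *MRPL25* (-1.53) and *PET123* (-1.23), the 2 that remained after quantile scaling. With the 6 Δ*hap1* arrays alone 25 of the 73 were lower, against 15.3% of all genes. Without the 3 replicate 3 arrays of *HAP1* cells 8 were, against 10.4%. In all 3 pairs 48 were lower, as 43.3% of all genes were. *TOM70*, the receptor of mitochondrial protein import, read 11.48, 10.45 and 10.48 after 6 h, against 12.88, 11.44 and 12.33 in air (-1.41, SE 0.27, adjusted p = 0.011).

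**Figure D4:**
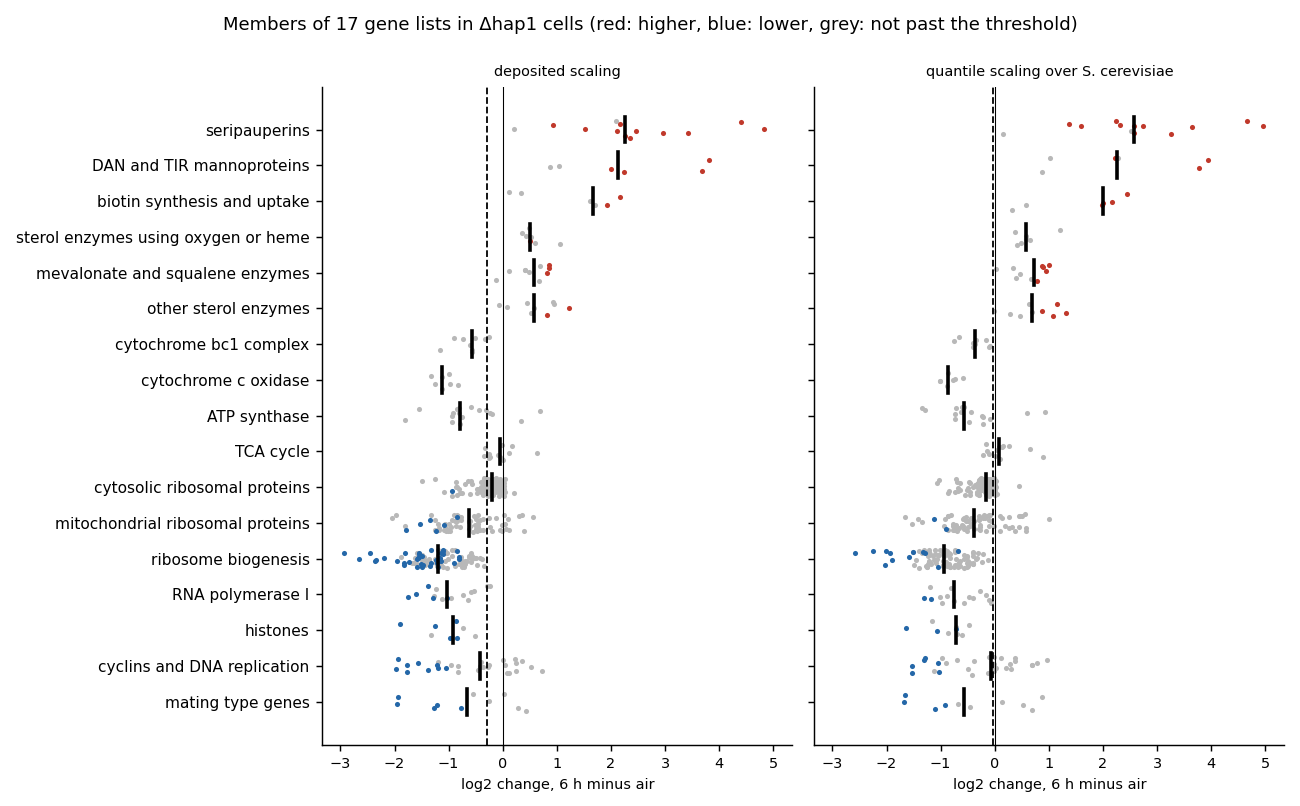
Log2 change (x axis) of each measured member of 17 gene lists, under the deposited scaling (left) and after quantile scaling (right), with members past the threshold in red (higher) or blue (lower), list medians as bars and the median of all genes dashed. Seripauperins (median 2.26) and ribosome biogenesis (-1.20) lie at the 2 ends under both scalings, and the medians of the cytosolic ribosomal proteins are -0.20 and -0.16.

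Of 9 histone genes 5 fell, and of 30 genes of cyclins and DNA replication 9. All 9 measured histone genes had anaerobic arrays wholly below the aerobic ones, where 13.9% of all genes did. Those past the threshold included *HTB2*, a histone H2B gene (13.15, 12.63 and 12.40 after 6 h, against 13.62, 13.47 and 13.64 in air; -0.85, SE 0.21, adjusted p = 0.026), *HHF1*, a histone H4 gene (-1.26, 0.020), and *HTZ1*, the variant H2A.Z (-1.90, 0.040). *HTB1* and *HHT2* lost their calls after quantile scaling (both 0.069), which leaves 33.3% of the histone genes lower, against 3.21% of all genes. *CLB2*, the mitotic cyclin, read 8.97, 7.97 and 7.34 after 6 h, against 10.74, 9.36 and 10.08 in air (-1.97, SE 0.39, adjusted p = 0.014), and *SWI5*, a transcription factor of the same stage, read 9.27, 8.13 and 7.85, against 10.82, 10.02 and 10.23 (-1.94, SE 0.32, adjusted p = 0.0070). Anaerobic arrays 2 and 3 lay under the background for both. *SWE1* (-1.77), *CLN1* (-1.57) and *SIC1* (-1.38) fell, the S-phase cyclin gene *CLB6* was at least 1.6-fold lower (0.0084), and *CLB1*, *MCM6* and *CDC6* did not pass (-1.20, -0.96 and -0.82). After quantile scaling 6 of the 30 were lower, without *CLN1*, *SIC1* and *CLB5*. *CIN8*, a mitotic kinesin, was at least 1.61-fold lower (0.010) and under the background on all 3 anaerobic arrays, and *RTT107*, a scaffold of DNA repair, read 8.14, 7.09 and 6.87, against 10.56, 9.68 and 9.91 in air (-2.69, SE 0.32, adjusted p = 0.0017). For *RTT107* anaerobic arrays 2 and 3 lay under the background.

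L51 is a MATa strain, and 5 of 10 genes of the mating type list fell, all of them expressed only in a cells. *AGA2*, the binding subunit of a-agglutinin, read 10.10, 10.16 and 10.13 after 6 h, against 12.07, 11.67 and 12.54 in air (-1.96, SE 0.24, adjusted p = 0.0017). *BAR1*, the protease that degrades α-factor, read 10.51, 10.65 and 9.77, against 11.95, 12.45 and 12.33 in air (-1.93, SE 0.30, adjusted p = 0.0068), and *MFA1* (-1.27), *STE6* (-1.22) and *STE2* (-0.78) fell too. In each of these 5 the anaerobic arrays lay below the aerobic ones. *SST2*, which quenches the pheromone signal, fell by 2.46 (0.015), with anaerobic arrays 2 and 3 under the background. *MFA2*, the other a-factor gene, had -0.55 (0.092), and the α-specific *STE3* had 0.28 (0.65). *STE2* lost its call after quantile scaling (0.052), which leaves 4 of the 10 (40.0%, against 3.21% of all genes). With the hybridization round as the block *AGA2* and *MFA1* remained.

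Of 15 genes of proline and allantoin use 12 had values below 0. *DUR3*, the urea permease gene, and *DAL7* fell by 1.29 and 1.10 (13.3%, against 8.64% of all genes), with a list median of -0.81. The anaerobic arrays lay wholly below the aerobic ones for 9 of the 15, against 13.9% of all genes, 11 were lower in all 3 pairs, and 8 had an unadjusted p under 0.05. *DUR3* read 10.26, 9.90 and 9.71 after 6 h, against 11.38, 11.29 and 11.07 in air (SE 0.36, adjusted p = 0.039). *PUT1*, proline oxidase, and *DAL1*, allantoinase, had -1.42 and -1.01 (both adjusted p = 0.062) and passed without the 3 replicate 3 arrays of *HAP1* cells (0.023 and 0.038), where 6 of the list were lower. After quantile scaling none of the 15 passed, with a median of -0.53. Of 12 genes of purine synthesis *ADE1*, a marker of the strain, fell by 0.77 (adjusted p = 0.020), with a median of -0.42. For 5 of the 12 the anaerobic arrays lay wholly below the aerobic ones (41.7%, against 13.9% of all genes). *ADE6* and *ADE13* had -0.78 and -0.65 (0.054 and 0.060).

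Other pathways had calls for few of their members. Of 52 genes of amino acid synthesis *GDH3*, a glutamate dehydrogenase, rose by 1.66 (0.012), and *SER3* (-1.47) and *GLT1* (-0.99) fell. The methionine permease gene *MUP1* read 11.79, 11.94 and 11.33 after 6 h, against 13.10, 13.27 and 13.01 in air (-1.44, SE 0.22, adjusted p = 0.0068). *PHM8*, a nucleotidase of the phosphate regulon, rose by 2.88 (11.43, 11.58 and 9.81 against 8.18, 8.75 and 7.28; SE 0.65, adjusted p = 0.020), 1 of 15 genes of that list. Of 34 autophagy genes *ATG15* (1.26) and *ATG18* (0.84) rose and *ATG13* fell (adjusted p = 0.020), while *ATG16* lay under the background in both groups. Of 33 proteasome genes none passed in limma under the 3 scalings (1 at an unadjusted p under 0.05, median -0.19). *SER3*, *GLT1* and *ATG13* were not past the threshold after quantile scaling. Of the auxotrophic markers of the strain *HIS4* had 0.10, *URA3* -0.29 and *LEU2*, which disrupts *HAP1*, 0.53, none past the threshold.

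Whether the 6 h change differs from that of *HAP1* cells was tested as an interaction in the same fit. No gene passed in limma (95 genes at an unadjusted p under 0.05, smallest adjusted p 0.93), and the median SE of the difference was 0.44, against 0.31 for the change itself. Without the 3 replicate 3 arrays of *HAP1* cells named above, *HMX1*, *CYC1*, *NDE1* and *PLN1* passed with the higher change in Δ*hap1* cells and *ANB1* and *PAU3* with the lower. Since the 6 h array among them was singled out by its reading of an anaerobic gene, these calls are no independent support for a difference. Of the 122 genes that rose in Δ*hap1* cells 121 also had positive values in *HAP1* cells, where 41.3% of all genes did, and of the 471 that fell 469 had negative values (58.7% of all genes). In *HAP1* cells 72 genes were higher and 45 lower by the same test, and 46 of the rises and 35 of the falls passed in both genotypes. Both changes compare second-round with first-round arrays hybridized on the same 3 days, and the part of that shared layout in these shares was not tested.

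Among the isoforms, heme genes and *ROX1* the difference varied from gene to gene. *ANB1* changed by 1.00 in Δ*hap1* cells and 3.98 in *HAP1* cells, a difference of -2.98 (SE 1.43, unadjusted p = 0.057), and its mean level was 14.03 against 13.89 without oxygen but 13.02 against 9.91 in air. *CYC1* changed by -0.41 and -3.50 (difference 3.09, SE 1.11, unadjusted p = 0.015), with 9.87 in aerobic Δ*hap1* cells, against 13.55 in aerobic *HAP1* cells. *AAC3* had -0.33 and 1.45 (unadjusted p = 0.038), *COX5A* -0.38 and -1.53 (0.044) and *HMX1*, the heme oxygenase, -0.58 and -2.98 (0.0082). For *ANB1*, *CYC1*, *AAC3* and *HMX1* the genotype means lay farther apart on the aerobic arrays than on the anaerobic ones, and for *COX5A* the reverse held. *CYC7*, *ROX1* and *HEM13* differed by -0.47, 0.44 and -0.87 (unadjusted p = 0.74, 0.70 and 0.27). None passed over all genes, at an adjusted p of 0.93 or more. *ECM22*, which fell by 1.09 in Δ*hap1* cells and had 0.23 in *HAP1* cells (unadjusted p = 0.0045), and *SCM4*, which rose by 2.40 in Δ*hap1* cells and had 0.73 in *HAP1* cells (0.0027), were among the 10 smallest p-values of the test.

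**Figure D5:**
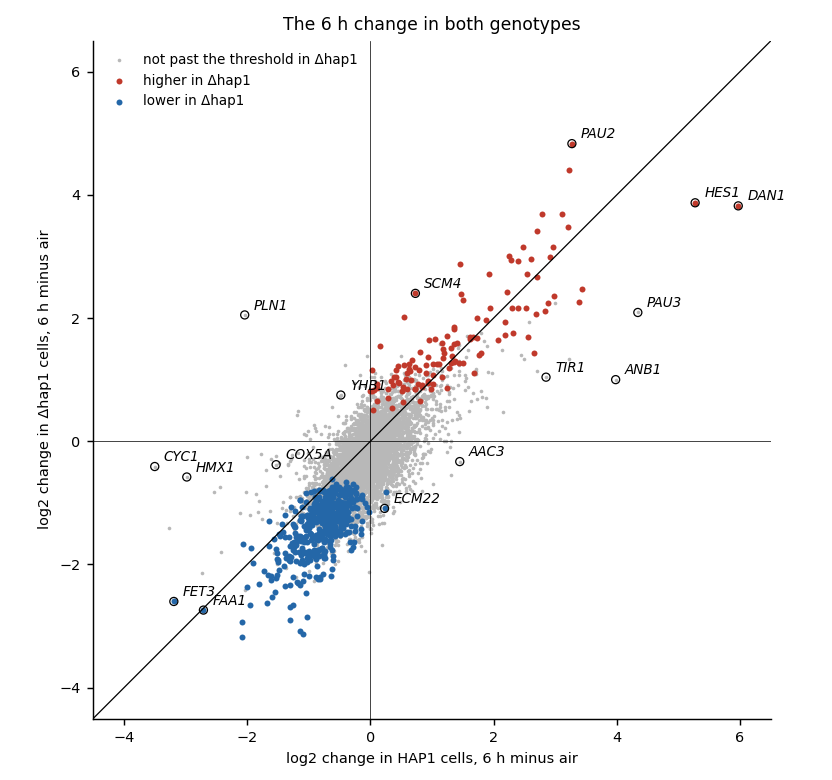
Log2 change after 6 h without oxygen in Δ*hap1* cells (y axis) against the same change in *HAP1* cells (x axis), 1 point a gene, red and blue for genes higher or lower in Δ*hap1* cells and a diagonal for equal change. Most genes past the threshold lie in the quadrants of equal sign (121 of 122 and 469 of 471), and *CYC1*, *ANB1*, *AAC3*, *HMX1* and *PLN1* lie far from the diagonal without passing the test of the difference.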

How the data were processed

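RNA of 24 yeast cultures was measured on Affymetrix arrays, and the 18 arrays of strain L51 were used here, 3 for each of 6 conditions. The study's text says that a replicate was grown in a different strain, while its methods and the labels give L51 for all 18. The deposited values are RMA intensities on a linear scale, background-corrected, normalized over all probe sets and summarized by the authors; their lowest value was 13.6 and their highest 34148. Log2 of the intensity was taken. Of 10928 probe sets 5498 were of S. cerevisiae, and the brightest probe set stood for each of 5449 genes. Symbols came from the platform annotation. Background was the 95th percentile of the 1746 S. pombe probe sets of an array.

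limma 3.58.1 (R 4.3.3) was fitted to the 18 arrays with condition and replicate number as terms, and p-values were adjusted by Benjamini-Hochberg over the 5449 genes, with a threshold of 0.05. Values in text follow the order of replicates 1, 2 and 3, and a p in parentheses after a change is its adjusted p. The p-values measure the spread between these arrays. The replicate numbers pair the arrays by design, since the study sets each array against that of its own number, and the deviations of same-numbered Δ*hap1* arrays correlated at 0.497, 0.715 and 0.305, against -0.63 to 0.275 for the others. Differences between genotypes were tested as an interaction in the same fit. The step was tested on simulated data. A group under the background on all its arrays has only a bound: each array of the dim group was given its background level.

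Named are the 15 largest rises and falls with 1 direction in all pairs, up to 6 members past and 3 not past the threshold of each of 54 lists, every member of 5 short lists, and the 10 genes with the smallest p of the interaction, 304 genes in all. *CLB5* and *NDE1* lie outside this rule and were chosen after their values were seen. The lists and genes were chosen with earlier results of these data known. Alternatives were the block, the arrays in the fit, scaling, offset, a filter on dim probe sets, probe set choice, array weights, variance model and arrays left out. Promoter motifs were not analysed here.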

Additional observations from a re-analysis of the deposited data

Results flagged for a closer look

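The 6 h change of 6 named genes ran one way in all pairs of Δ*hap1* cells and the opposite way in all pairs of *HAP1* cells, with an unadjusted p under 0.05 for the difference. The named genes include those with the smallest p of this same test, and the 6 were then kept by that p. Their p-values follow in part from this choice and are no independent support for a difference. How many of all genes had pairs that ran opposite ways is not given here. The difference was tested by limma as an interaction, and none passed over all genes, at an adjusted p of 0.93 each. It was 4.09 (SE 1.02, unadjusted p = 0.0014) for *PLN1*, a lipid droplet protein, with 1.95, 1.27 and 2.94 within the pairs of Δ*hap1* cells and -2.32, -3.44 and -0.35 within those of *HAP1* cells. It was 1.23 (limma, unadjusted p = 0.011) for *YHB1*, the flavohemoglobin that detoxifies nitric oxide, with 1.00, 0.35 and 0.90 in Δ*hap1* cells and -0.58, -0.18 and -0.68 in *HAP1* cells, and 1.21 (limma, unadjusted p = 0.014) for *ERG29*, a gene linked to sterol synthesis, with 0.78, 1.53 and 0.50 in Δ*hap1* cells and -0.23, -0.16 and -0.44 in *HAP1* cells. The difference was -1.46 (limma, unadjusted p = 0.0037) for *OPT1*, an oligopeptide transporter, with -0.57, -0.76 and -1.06 in Δ*hap1* cells and 0.88, 0.88 and 0.24 in *HAP1* cells. It was -1.18 (limma, unadjusted p = 0.0051) for *YGL041C-B*, with -0.20, -0.61 and -0.26 in Δ*hap1* cells and 0.58, 1.04 and 0.86 in *HAP1* cells, and -0.79 (limma, unadjusted p = 0.010) for *OYE2*, an NADPH oxidoreductase, with -0.08, -0.09 and -0.40 in Δ*hap1* cells and 0.56, 0.90 and 0.33 in *HAP1* cells. Without the 3 replicate 3 arrays of *HAP1* cells named in the report, *PLN1* alone of the 6 passed (4.97, adjusted p = 0.019).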

How the results depend on the processing

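The counts of genes higher and lower after 6 h in Δ*hap1* cells, 122 and 471, moved with the fit. Without the replicate block 20 were higher and 27 lower, so that most calls rest on the pairing by replicate number. With the 6 Δ*hap1* arrays only the counts were 198 and 832, without the 3 replicate 3 arrays of *HAP1* cells 206 and 564, and with the hybridization round as the block 10 and 26. Quantile scaling over S. cerevisiae probe sets gave 255 and 175, cyclic loess 291 and 165, and array weights, whose iterations stopped before convergence, 577 and 2047. Leaving out a replicate number or a single Δ*hap1* array gave between 0 and 76 higher and between 0 and 670 lower. An offset of 50, a filter on dim probe sets, the mean of probe sets, a trended robust variance and a minimum of 2-fold kept both counts within 1.5 times. Of the 125 named genes past the threshold 0 turned direction in any of these, which several of the alternatives could not bring about, as stated above. Of the 125, 88 kept the call after quantile scaling, 24 without the block and 16 with the round as the block. For the difference between genotypes the count was 0 in each direction and moved only to 4 higher and 2 lower without the 3 arrays of *HAP1* cells and to 88 and 129 with array weights. The cause of these shifts was not tested. Signal over background limits the falls: 62 of the 471 genes lower lay under the background on all 3 anaerobic arrays, and 9 of the 122 higher on all 3 aerobic arrays.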
